A study of Homo sapiens with 4 samples.

Results

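Lysosome and autophagy genes were examined for binding of TBX3, a T-box transcription factor known mainly as a repressor. Members were all genes that the deposited annotation of the ChIP-seq peaks names as nearest to a peak and whose symbol is that of a V-ATPase subunit (ATP6V), a cathepsin (CTS plus 1 letter), LAMP1 to LAMP3, an ATG gene, DRAM1 or DRAM2, a GABARAP or MAP1LC3 gene, ULK1 or ULK2, BECN1, SQSTM1, UVRAG, MCOLN1, NPC1 or NPC2. The rule found 42 members among the 12468 genes named in the 2 peak lists. The same symbols occur 106 times in the RefSeq gene table, 76 of them as protein-coding genes, of which 40 were members and 36 had no peak assigned in either list. These 76 are called family genes here, whether or not they had a peak. The cells were of 501mel, an established human melanoma line, and the precipitated protein was TBX3 with a triple HA tag, taken down with an antibody against HA (12CA5). The 2 ChIP samples, replicates 1 and 2, share line, tag and antibody, and the labels give no other treatment. Nothing says that they came from separate cultures, and no peak list of the 2 input samples was used here. A tagged protein stands in for the native one, so binding of untagged TBX3 was not measured. Peak lists hold no expression values, so the labelled cell type could not be checked against its markers.

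Lysosomes are acidified by the V-ATPase, a proton pump with a membrane sector (V0) and a cytosolic sector that hydrolyses ATP (V1), and they digest protein with cathepsins. Autophagy delivers cytoplasm to them: the ULK kinases start the process, a lipid kinase complex with BECN1 marks the membrane, and a conjugation cascade of ATG proteins attaches the ATG8 family (MAP1LC3 and GABARAP proteins) to the growing membrane, where receptors such as SQSTM1 load cargo. Melanosomes are organelles related to lysosomes, and many lysosome genes carry in their promoters an E-box that MITF and its relatives TFEB and TFE3 can bind.

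A peak was known by its summit, a single base in hg38, and by a deposited score with no stated scale, which is compared here only within its own list and as a rank (1 is the highest score) or percentile. The lists held 32479 peaks in replicate 1 and 40494 in replicate 2. Their read depth is unknown. Of these, 60 peaks in replicate 1 and 78 in replicate 2 had a member as the nearest gene. Summits of the 2 lists that were each other's nearest and lay within 200 bp were treated as 1 shared pair, and 43 of the 22702 pairs belonged to members. A partner was found for 71.7% of the member peaks of replicate 1 (95% Wilson interval 59.2% to 81.5%) and 55.1% of those of replicate 2 (44.1% to 65.7%), against 69.9% and 56.1% of all peaks. These intervals cover counting error only. At all 43 pairs both lists named the same gene, as they did at 22170 of all 22702 pairs. Summits within 200 bp of each other mostly have the same nearest start site, so this is no measure of agreement between replicates.

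A shared pair lay within 10 kb of the transcription start site (TSS) of 13 members, namely ATG3, ATG4B, ATP6V0A4, ATP6V0E1, ATP6V1B2, ATP6V1E2, BECN1, CTSB, CTSZ, GABARAPL3, MAP1LC3B2, NPC1 and SQSTM1. Leaving out GABARAPL3, a transcribed pseudogene, these were 12 of the 76 family genes (15.8%, Wilson interval 9.27% to 25.6%). Among all 19974 protein-coding genes the share was 10.1%, which lies inside that interval. Within 1 kb it was 3 genes (3.95%, against 2.99% of all), and within 50 kb 27 genes (35.5%, 25.7% to 46.7%, against 22.9%). At any distance, 32 members had a pair, of which 31 were protein-coding (40.8%, 30.4% to 52.0%), against 28.6% of all protein-coding genes. Single lists gave a like picture, with a peak at 35 of the 76 in replicate 1 (46.1%, against 34.1%) and at 38 in replicate 2 (50.0%, against 38.4%). A count by gene position gave no such gap: 21 of the 76 genes (27.6%, 18.8% to 38.6%) had a pair inside their span or within 10 kb of it, against 28.6% of all. Inside the span alone there were 18 (23.7%, against 20.8%), and within 10 kb of the RefSeq start site, whichever gene was nearest, 7 of the 59 genes with a listed start (11.9%, against 11.2%). These last counts differ from the count at any distance both in how a pair is assigned and in how far it may lie. At the edge of the 10 kb limit, NPC1 was just inside with a pair at 9758 bp in replicate 1 and 9821 bp in replicate 2, whereas ATG16L1 was just outside at 11018 bp and 11063 bp.

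**Figure D1:**
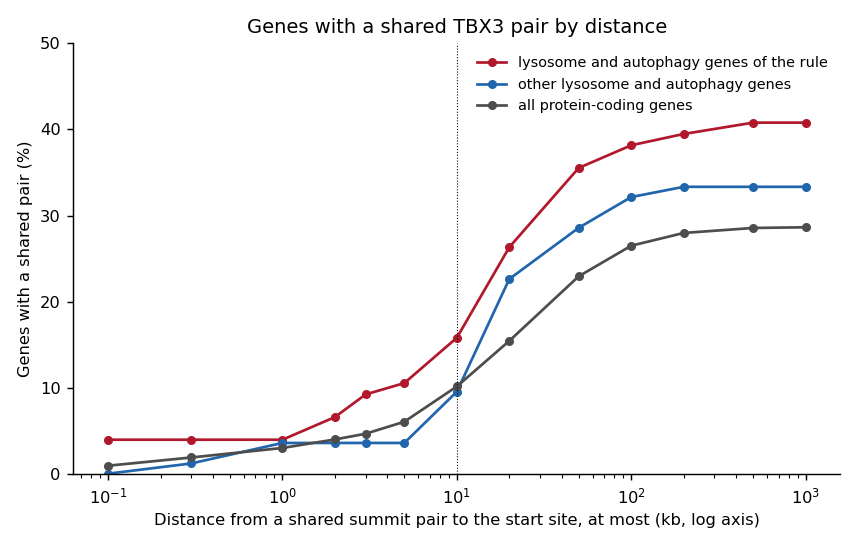
Percentage of genes (vertical axis) with a shared summit pair no farther from the nearest start site than the distance on the horizontal axis (kb, log axis), for the 76 family genes, 84 other lysosome and autophagy genes and all 19974 protein-coding genes. At 10 kb, marked by the dotted line, the values were 15.8%, 9.52% and 10.1%.

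Start sites themselves held few of these pairs. Of the 43 member pairs, 3 were annotated as promoter (6.98%, against 2.52% of all pairs), at ATG3, ATP6V0E1 and MAP1LC3B2. ATG3 encodes the enzyme that passes ATG8 proteins to their lipid. Its summits lay at 112561948 (replicate 1) and 112561949 (replicate 2) on chromosome 3, 15 bp and 14 bp downstream of the TSS, in a promoter that ATG3 shares with SLC35A5, which is transcribed the other way. The scores were 17.5 and 18.1, at percentiles of 60.0 and 57.8, so both lists placed the site slightly above their middle. In the RefSeq promoter table (GRCh38.p14, 250 bases before to 50 after the start), ATG3 was the 1 of 59 family genes with an entry whose window held both summits (1.69%, against 0.885% of 15813 protein-coding promoters). At MAP1LC3B2 the replicate 1 summit fell at base 273 of its window and the replicate 2 summit lay beyond it. That window held no E-box (CACGTG). ATP6V0E1 had no entry, so its promoter could not be examined. The ATG3 window is shown because it holds an E-box (in capitals) at bases 233 and 256. The ATG3 summits fell at bases 265 and 264, which is 4 and 3 bases beyond the end of the second E-box. The ATG3 window runs over chr3:112561913-112562212 on the minus strand.
ATG3 promoter: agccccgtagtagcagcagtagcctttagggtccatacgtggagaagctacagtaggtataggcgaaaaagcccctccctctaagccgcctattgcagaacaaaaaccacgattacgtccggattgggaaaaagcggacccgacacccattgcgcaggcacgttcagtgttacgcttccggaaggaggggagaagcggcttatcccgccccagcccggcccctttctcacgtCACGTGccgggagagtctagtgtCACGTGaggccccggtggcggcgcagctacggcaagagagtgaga

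The letters GGTGTGA, the core of the site that T-box factors bind, were not in this window on either strand, and of the 59 family promoters 1 held them, that of ATG9B (1.69%, against 3.26% of all protein-coding promoters). The E-box CACGTG, which reads the same on both strands, was in 11 of the 59 family promoters (18.6%) against 8.87% of all. These were ATG3, ATG14, ATP6V0B, ATP6V0D1, ATP6V0E2, ATP6V1G1, CTSA, CTSD, CTSF, LAMP1 and MCOLN1. Of these 11, 7 belonged to genes with no peak in either list, which also held for 36 of the 76 family genes. Among all protein-coding genes, 41.6% had a peak in either list. LAMP1, a heavily glycosylated protein of the lysosomal membrane, held 6 copies and had 1 peak, in replicate 1, 8156 bp downstream of the TSS. Among all protein-coding promoters with an E-box, 1.92% held both summits of a pair, against 0.784% of those without one. Of the 140 promoters with both summits over all genes, 12 held GGTGTGA (8.57%, against 3.26% of all promoters) and 27 held the E-box (19.3%, against 8.87%), with no test of either difference. The next lines show the ATG3 copies beside the other family genes' copies that were chosen for having T before and A after the E-box, as 8 of the 21 copies in these promoters did, each with 7 bases on either side and the E-box in capitals. A match is a description of the letters and not of a bound site.
ATG3, first copy, chr3:112561968-112561987, minus strand: ctcacgtCACGTGccgggag
ATG3, second copy, chr3:112561945-112561964, minus strand: ctagtgtCACGTGaggcccc
ATP6V0D1, chr16:67481204-67481223, minus strand: ttatggtCACGTGaggcgct
ATP6V1G1, chr9:114587704-114587723, plus strand: gtgcggtCACGTGacaacgg
CTSA, chr20:45891303-45891322, plus strand: cggagttCACGTGactcgta
LAMP1, chr13:113297204-113297223, plus strand: gcgggatCACGTGacgcccg
LAMP1, chr13:113297231-113297250, plus strand: cgcagctCACGTGacaagcg
MCOLN1, chr19:7522576-7522595, plus strand: aggcggtCACGTGaggggct
MCOLN1, chr19:7522603-7522622, plus strand: accgggtCACGTGaccgagg
The second ATG3 copy, the one beside the summits, has these neighbours, and the first does not. No pair of summits fell in the promoter windows of ATP6V0D1, ATP6V1G1, CTSA, LAMP1 or MCOLN1.

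**Figure D2:**
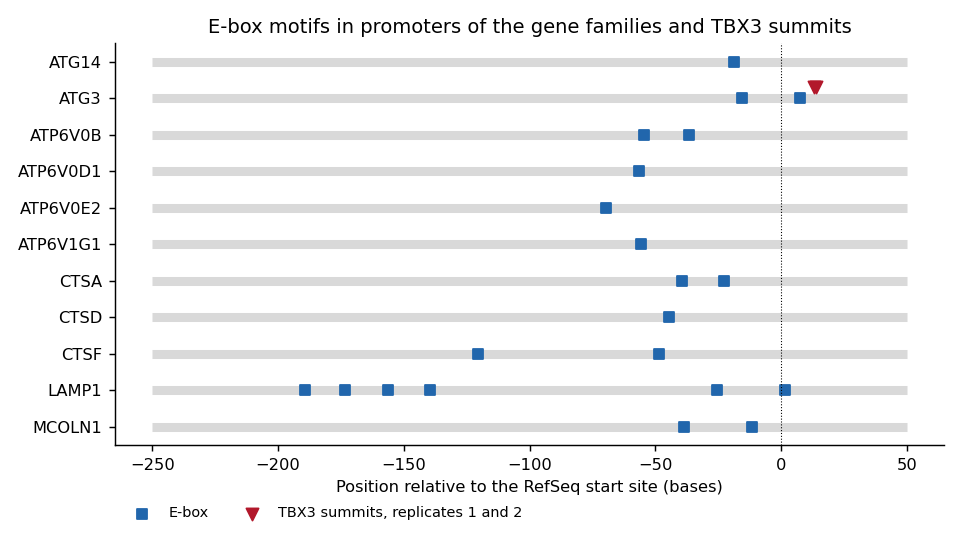
Promoters of the 11 family genes with an E-box, drawn as grey bars from 250 bases before to 50 after the RefSeq start site (horizontal axis, bases). Blue squares are E-box copies and red triangles are the TBX3 summits of the 2 replicates, which appear at ATG3 alone, next to its second copy.

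Subunits of the V-ATPase accounted for 13 of the 43 pairs, of which 5 were at ATP6V0A4 alone. The 2 sectors hold 9 and 13 of the 76 family genes. Over all protein-coding genes, 10.1% had a pair within 10 kb and 41.6% had a peak in either list. In the V0 sector, which carries protons through the membrane, 2 of 9 genes had a pair within 10 kb, 1 had a pair farther away and 6 had no peak. In the V1 sector, 2 of 13 had a pair within 10 kb, 3 farther away only, and 6 had no peak. ATP6V1E2, an isoform of the stalk subunit E, had the strongest pair near a start site of any member. Its summits fell inside the gene, in intron 4 of 4, at 46535564 and 46535576 on chromosome 2. They were 6993 bp and 6981 bp from the TSS. The scores were 188.0 and 278.5, with ranks of 656 and 670, so the site stood among the highest 1000 of both lists, as 2 of the 43 member pairs did (3.49% of all pairs). The same neighbourhood held another pair 51.9 kb from that start site, beyond the gene, with scores of 237.6 and 226.5 and TMEM247 as its nearest gene.

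ATP6V0A4, a form of the large V0 subunit a, had the most pairs of any member, 5, from 6 peaks in replicate 1 and 7 in replicate 2. Of these pairs, 4 lay inside the gene and 1 lay 83095 bp upstream in intron 11 of 19 of KIAA1549. The pair at 138752762 and 138752759 on chromosome 7, in exon 11 of 22, had the lowest sum of ranks, with scores of 28.02 and 46.99. The pair within 10 kb of a start site lay 4656 bp downstream of that start in replicate 1, within an Alu element. This start site is inside the gene and is not the outer one from which the 83095 bp was measured. The pair scored 4.12 in replicate 1 and 36.8 in replicate 2. Its percentile was 8.57 in the first list and 76.0 in the second, so its strength was not the same in both. ATP6V0E1, a small V0 subunit, had promoter summits 48 bp and 1 bp upstream of its TSS, with scores of 9.64 and 9.73, below the middle of each list. ATP6V1B2, a subunit of the V1 head, had summits in intron 1 of 13, 1528 bp and 1544 bp from the TSS, with scores of 22.6 and 27.6. The more distant pairs belonged to ATP6V0A2, ATP6V1C2, ATP6V1G1 and ATP6V1G3. At ATP6V1G1 the stronger of 2 pairs scored 63.7 and 44.6 and lay 35537 bp upstream in replicate 1. At ATP6V1G3 the pair lay 16209 bp and 16171 bp upstream and scored 18.4 and 37.5 (ranks 12123 and 9525). At ATP6V0A2 the pair lay in intron 12 of 17 of the neighbouring gene TCTN2.

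ATP6V1A, the subunit of V1 that hydrolyses ATP, had a peak in each list, but at different places. In replicate 1 the summit was 246 bp downstream of the TSS with a score of 9.73, in replicate 2 it was 7597 bp downstream with a score of 27.99, and the summits were 7351 bp apart. ATP6V1C1 had 1 peak, in replicate 1. Members of the pump with no peak in either list were ATP6V0A1, ATP6V0B, ATP6V0C, ATP6V0D1, ATP6V0D2, ATP6V0E2, ATP6V1B1, ATP6V1D, ATP6V1E1, ATP6V1F, ATP6V1G2 and ATP6V1H.

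**Figure D3:**
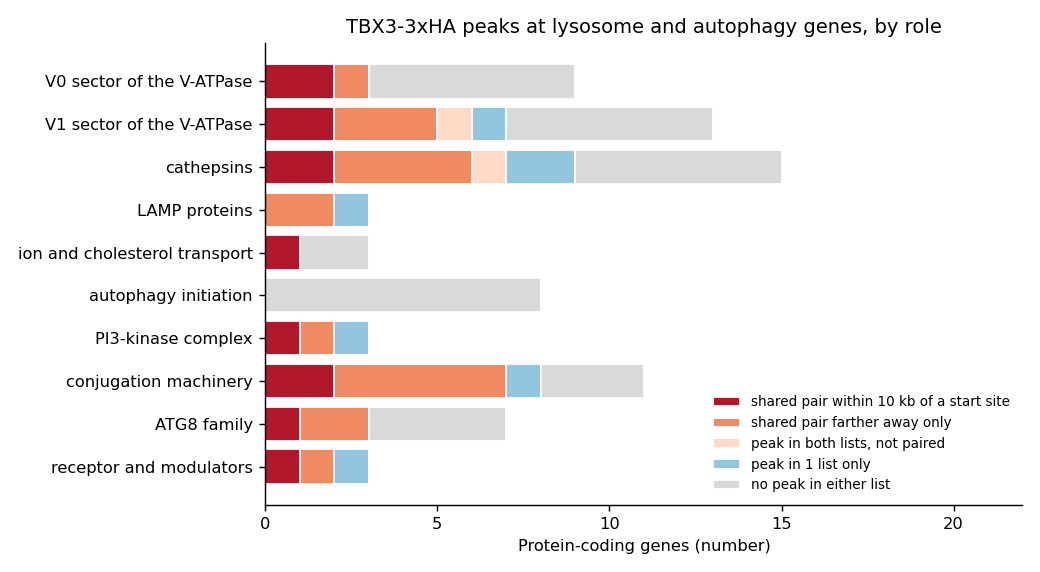
Protein-coding genes of each role (horizontal axis, number of genes), coloured by the nearest evidence of a TBX3 peak in the deposited annotation. All 8 genes of autophagy initiation fall in the class without a peak, and 2 of 11 conjugation genes had a shared pair within 10 kb. Over all protein-coding genes, 41.6% had a peak in either list and 10.1% had a shared pair within 10 kb. MAP1LC3BP1, which the table lists as protein-coding and which had no peak, is not drawn.

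Among the cathepsins, 2 of 15 genes had a pair within 10 kb, CTSB and CTSZ, and 4 had pairs farther away only. Over all protein-coding genes, 10.1% had a pair within 10 kb and 28.6% at any distance. CTSB, a cysteine protease abundant in lysosomes, had 2 pairs on chromosome 8. The stronger lay at 11875103 and 11875086, 6953 bp and 6936 bp upstream of the TSS in a MIR element, with scores of 65.2 and 88.4 and percentiles of 88.9 and 89.9. The other lay in intron 1 of 9 with scores of 26.2 and 35.0. Both CTSB pairs were thus in the upper part of both lists. CTSZ, a carboxypeptidase, had summits in intron 2 of 5, on chromosome 20, 2052 bp and 2188 bp from the TSS, scoring 7.37 in replicate 1 and 34.7 in replicate 2. CTSV, a close relative of CTSL, had a pair 12390 bp upstream in an LTR element of the ERV1 class, with scores of 38.4 and 85.1. The strongest pairs of CTSH, CTSL and CTSO lay 30679 bp, 12447 bp and 283533 bp from the TSS in replicate 1. They scored at most 31.9 in either list, and the CTSH pair scored 31.9 and 19.6.

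CTSK, a collagen-degrading cathepsin, was found in replicate 2 alone. Its higher peak, 1455 bp upstream of the TSS, scored 54.7 (rank 6761), the highest score of any member peak without a partner, and the second peak at 618 bp upstream scored 16.5. The nearest summit of replicate 1 was 121207 bp from the first. CTSG had 1 peak in replicate 2, and CTSC had a peak in each list that did not pair. CTSA, CTSD, CTSE, CTSF, CTSS and CTSW had no peak in either list.

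NPC1, which exports cholesterol from lysosomes, had a pair upstream of its TSS at 23596375 and 23596438 on chromosome 18, with scores of 36.5 and 53.5 and percentiles of 79.6 and 82.8. NPC2, its soluble partner, and MCOLN1, a cation channel of the lysosomal membrane, had no peak. LAMP2 had a pair 16706 bp upstream in replicate 1 with scores of 11.6 and 20.0, and LAMP3 had one 27693 bp upstream in an intron of MCF2L2 with scores of 4.50 and 3.68, near the bottom of both lists. LAMP3 also had a peak in an intron in each list, with summits 203 bp apart, just over the pairing limit, and scores of 14.9 and 10.2. The single LAMP1 peak scored 8.03.

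None of the 8 genes of autophagy initiation (ULK1, ULK2, ATG13, ATG101, ATG2A, ATG2B, ATG9A and ATG9B) was the nearest gene of a peak in either list. Over all protein-coding genes, 41.6% had a peak in at least 1 list. With 8 genes the count says little about the group. In the lipid kinase complex, BECN1 had a pair in intron 7 of 9, 8838 bp and 8847 bp from the TSS and within an L2 element. It scored 22.1 in replicate 1 (percentile 67.3) and 5.55 in replicate 2 (percentile 17.6), the reverse of the usual order between the lists. ATG14, which targets the complex to the forming membrane, had a pair in intron 4 of 9, 22435 bp from the TSS in replicate 1, with scores of 50.8 and 56.6. UVRAG had 1 peak, in replicate 2, with a score of 5.55.

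In the conjugation machinery, 7 of 11 genes had a pair at any distance, where the share over all protein-coding genes was 28.6%. In the larger groups the count was 6 of 15 cathepsins and 5 of 13 V1 genes. Within 10 kb it was 2 of 11 conjugation genes, against 10.1% of all. With 11 genes these counts say little about the group. The pairs deposited under ATG4C, ATG10 and ATG12 all lay outside those genes. Besides ATG3, ATG4B had a pair within 10 kb. ATG4B is a protease that trims ATG8 proteins before conjugation, and its summits lay in intron 1 of 12, 2921 bp and 2898 bp from the TSS, with scores of 8.22 and 22.3. The 5 with pairs farther away were ATG4A, ATG4C, ATG10, ATG12 and ATG16L1. The strongest of these sites was at ATG4C, at 62882343 and 62882334 on chromosome 1, 16.8 kb beyond the end of the gene, with scores of 57.9 and 121.0. At ATG10, a pair 45844 bp upstream in replicate 1 scored 32.05 and 109.6. At ATG16L1, which helps to place the conjugation complex, the pair in intron 2 of 13 scored 38.4 and 62.6. The pair nearest to ATG12 lay in intron 2 of 6 of AP3S1, in an LTR element, and scored 29.0 and 62.0. ATG4A had a pair in intron 1 of 13 with scores of 14.06 and 23.02. ATG7 had 1 peak, in replicate 2, and ATG4D, ATG5 and ATG16L2 had none.

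In the ATG8 family, MAP1LC3B2 had 2 pairs, and MAP1LC3A and MAP1LC3C had 1 pair each. The promoter pair of MAP1LC3B2 was 22 bp and 168 bp downstream of the TSS, with scores of 3.80 and 11.4, and its second pair lay 81226 bp downstream in replicate 1. MAP1LC3B2 is a near-identical copy of MAP1LC3B, and the handling of reads that fit several places is not given in the sources used here, so the assignment of this weak site is uncertain. The pseudogene GABARAPL3, a copy of GABARAPL1, had a pair at its far end with scores of 10.0 and 10.3, with the same uncertainty. MAP1LC3A and MAP1LC3C had their pairs inside introns of PIGU and PLD5, at 46636 bp and 194484 bp in replicate 1. GABARAP, GABARAPL1, GABARAPL2 and MAP1LC3B had no peak.

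SQSTM1, the receptor that carries ubiquitinated cargo to the forming autophagosome, had summits at 179819604 and 179819587 on chromosome 5, 1238 bp and 1255 bp upstream of the nearest TSS and in intron 2 of 8 of a longer transcript. The scores were 39.4 and 51.6, at percentiles of 80.9 and 82.2, so the replicates placed the site alike. DRAM1, a lysosomal membrane protein that promotes autophagy after DNA damage, had the strongest site of all members. Its summits were at 101936311 and 101936315 on chromosome 12, with scores of 661.8 and 805.6 and ranks of 7 and 1, the latter tied with 1 other peak, next to HEY1. The site was 12.7 kb beyond the end of DRAM1 and inside RPL9P24, a pseudogene of 459 bp that copies a ribosomal protein gene, 95 bp and 99 bp from its start. Of 32 RPL9 genes and pseudogenes in the table, RPL9P24 was the 1 with a peak in either list, and whether sequence copies contributed to its score was not tested. The second DRAM1 pair, 65273 bp from the TSS in replicate 1, had percentiles of 0.470 and 1.34, among the lowest of both lists. Within 150 kb of the DRAM1 start, the other pairs lay in GNPTAB, on the other side of DRAM1, which makes the mannose phosphate tag that sorts enzymes to lysosomes. They were 53.2 kb and 52.3 kb upstream of the DRAM1 start in replicate 1, and the stronger scored 39.1 and 72.1. DRAM2 had 1 peak, in replicate 2, with a score of 4.28.

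**Figure D4:**
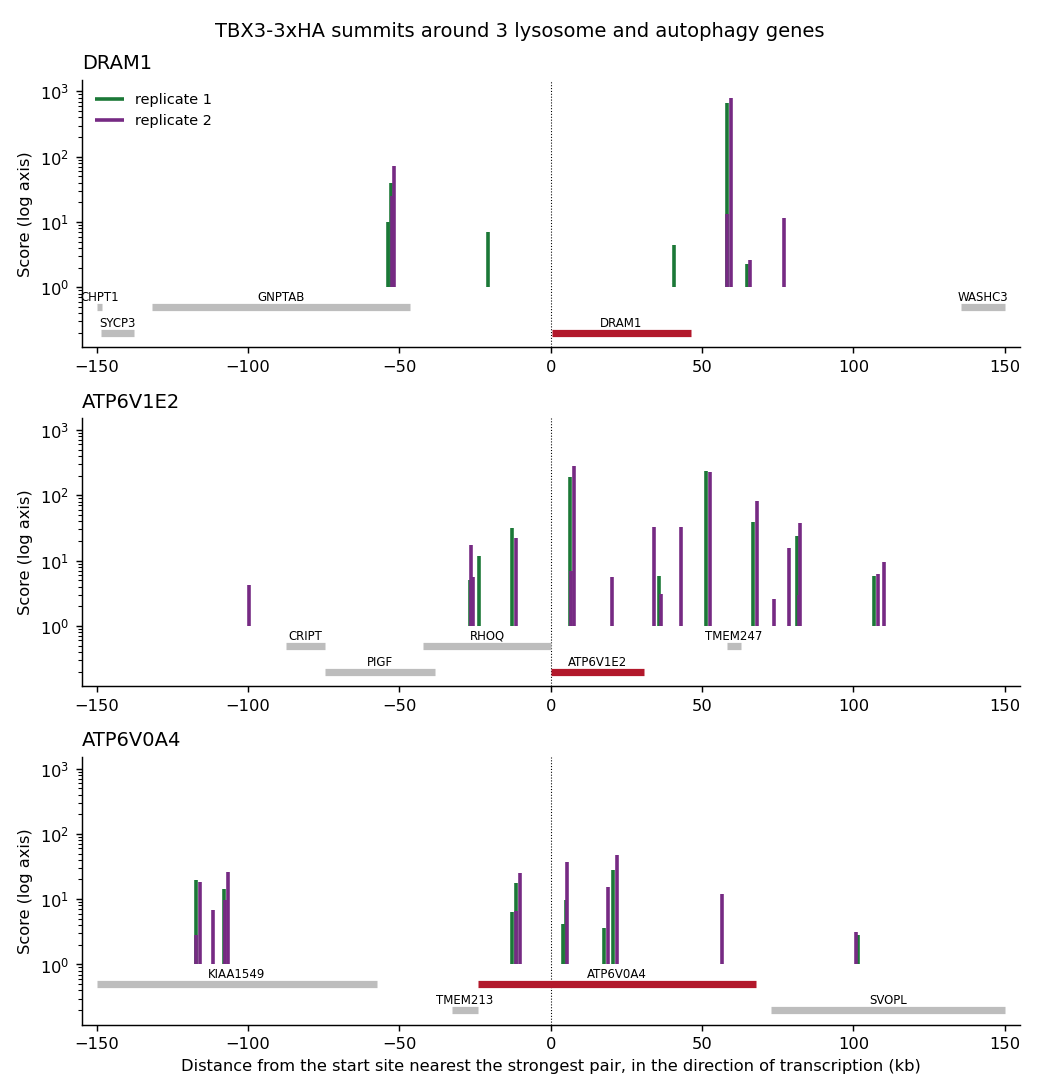
Scores of all summits (vertical axis, log axis) within 150 kb of DRAM1, ATP6V1E2 and ATP6V0A4, by distance from the start site that the annotation used for the strongest pair of each (horizontal axis, kb, in the direction of transcription), with protein-coding genes below. Bars of the 2 replicates are drawn 0.6 kb to either side of their position. The DRAM1 site, with scores of 661.8 and 805.6, lies beyond the end of the gene, whereas the ATP6V1E2 site and 4 of the ATP6V0A4 pairs lie inside theirs.

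The members varied widely among themselves. The median of the mean score percentile over their 43 pairs was 57.9 (95% interval of the median 42.5 to 69.2), against 65.8 over all pairs. For the 13 member pairs within 10 kb of the TSS it was 51.9, against 69.2 for all pairs that near. Beyond 10 kb it was 58.5, against 65.2. Of the 43, 4 were among the 5000 highest scores of both lists (9.30%, against 17.8% of all pairs). These were the strong pairs of DRAM1, ATP6V1E2, CTSB and ATG4C. The 43 leave out 9 pairs inside family genes that were deposited under another gene. Of those 9, 5 were among the 5000 highest of both lists. Percentiles were higher in replicate 2 at 32 of the 43 pairs (74.4%), against 67.0% of all pairs. They differed by more than 25 points at 8 pairs (18.6%, against 12.6% of all), which were higher in replicate 2 in 7 cases and belonged to ATP6V0A4, ATP6V1G1, ATG4B, CTSZ and MAP1LC3B2, and lower in the case of BECN1. The median distance between the summits of a pair was 33 bp, against 28 bp over all pairs.

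**Figure D5:**
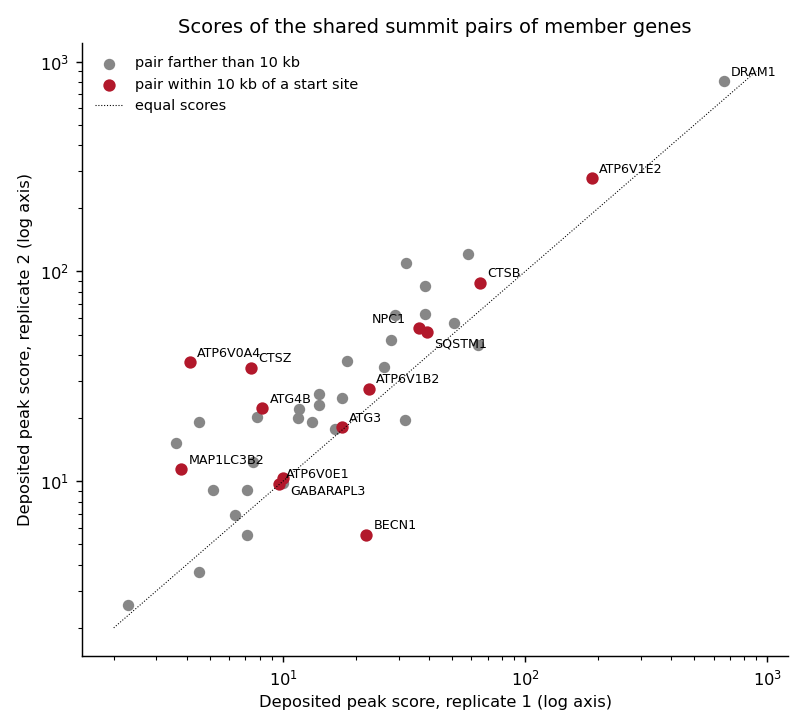
Deposited peak scores of the 43 member pairs in replicate 1 (horizontal axis) and replicate 2 (vertical axis), both on log axes, with pairs within 10 kb of a start site in red. DRAM1 lies at the top right, the ATP6V0A4 pair within 10 kb and CTSZ lie far above the line of equal scores, and BECN1 lies below it. Each list has its own range of scores, with medians over all paired peaks of 19.3 in replicate 1 and 29.0 in replicate 2. The line is therefore a guide to the eye and no measure of agreement.

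Most member sites were outside promoters. Of the 43 pairs, 16 were inside the span of their own gene, 6 were in an intron of another gene, 19 were annotated as intergenic (44.2%, against 53.2% of all pairs) and 21 were upstream of the TSS (48.8%, against 43.4%). The median distance to the TSS was 16.2 kb (interval of the median 11.02 to 30.68 kb), against 51.1 kb over all pairs and 37.1 kb over pairs outside satellites. Repeats held 15 of the 43 replicate 1 summits (34.9%, against 41.7% of all pairs and 30.1% of those outside satellites), of which 7 were in LTR elements (16.3%, against 10.5% of all pairs and 12.6% outside satellites), 4 in LINEs, 3 in SINEs and 1 in a DNA transposon. No member pair was in a satellite, the repeat class that held 16.6% of all pairs. Other gene families were not counted for satellite pairs, so this is not shown to be particular to the members. The score comparisons with all pairs given above include the satellite pairs.

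Assignment to the nearest TSS left out some sites inside family genes. In 6 of them, 9 shared pairs lay inside the gene but were deposited under another gene whose start site was closer. ATG7, the enzyme that activates ATG8 proteins and ATG12 for conjugation, held 3 such pairs in its long span, deposited under VGLL4, and the strongest scored 104.4 and 190.2 (ranks 1883 and 1386). ATP6V0A1, counted above as without a peak, held a pair in intron 19 of 21 that scored 136.0 and 261.6 (ranks 1188 and 761) and was deposited under MIR5010. ATP6V0E1 held 2 pairs deposited under SNORA74B, of which the stronger scored 110.5 and 179.6 (ranks 1713 and 1517), well above its promoter pair. ATG16L1 held a pair under SCARNA6 with scores of 113.7 and 105.1, and ATG10 held a pair in intron 5 of 7 under RPS23 with scores of 55.5 and 148.8. UVRAG held a pair in intron 12 of 14 under WNT11 with scores of 27.0 and 59.3. Of the 9, 5 were among the 5000 highest of both lists, a place held by 17.8% of all pairs. How many of all protein-coding genes hold a pair deposited under another gene was not counted. The pseudogene ATP6V1FP1 also held a pair, deposited under LOC101929243, with scores of 223.3 and 303.1. The antisense gene ATP6V0E2-AS1 was named at a peak in each list, but these peaks were 35733 bp apart.

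Of 84 other lysosome and autophagy genes outside the rule, 8 had a shared pair within 10 kb of the TSS (9.52%, Wilson interval 4.91% to 17.7%), which again included the share of 10.1% over all protein-coding genes. By gene position the count was higher: 34 of the 84 (40.5%, 30.6% to 51.2%) had a pair inside the gene or within 10 kb of it, against 28.6% of all. The 8 genes with a pair within 10 kb of the TSS included FNIP2, SMPD1, PSAP, ASAH1, MCOLN3, SCARB2 and VPS41. FNIP2, which acts with FLCN in nutrient sensing at the lysosome, had the lowest rank sum, with an intronic pair 4216 bp from the TSS in replicate 1 and scores of 148.6 and 256.6. SMPD1, the acid sphingomyelinase, had promoter summits 242 bp and 231 bp upstream of its TSS with scores of 145.8 and 120.7. PSAP, the precursor of the saposins, had a pair 9605 bp upstream in replicate 1 with scores of 78.4 and 173.7. ASAH1, the acid ceramidase, had an intronic pair 945 bp from the TSS in replicate 1 with scores of 79.1 and 147.0. Within 1 kb of the TSS, 3 of the 84 genes had a pair, namely FNIP2, SMPD1 and ASAH1 (3.57%).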

How the data were processed

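The peak lists of the 2 TBX3-3xHA ChIP samples were analysed, and no file of the 2 input samples was used here. Groups and replicate numbers came from the sample titles. Per the file headers, peak summits were annotated with annotatePeaks.pl against hg38, and start equalled end at every entry. The score deposited by the authors has no stated scale. The submitters' processing notes name FastQC 0.11.7, cutadapt 2.8, Bowtie2 2.3.5, MACS2 2.1.2 and SAMtools 1.9 without roles, and the control and threshold of peak calling are not given in the sources used here. Each list came from 1 sample. Pairing took mutually nearest summits within 200 bp, with gene and distance from replicate 1, and was tested on simulated data. Genes were matched by identifier to the RefSeq table of GRCh38.p14 (99.6% of 12468 matched), and hg38 is the same assembly. The start sites implied by the deposited distances fell within 100 bp of the promoter table's start for 66.4% of 20493 peaks of replicate 1. Within 10 kb the share was 87.1%. For member peaks of replicate 1 it was 25 of 41 within 100 bp. The reason for the mismatches was not tested. No test was run, since there is 1 condition. Values are given for every member with a pair within 10 kb, for the 10 of lowest rank sum among those with farther pairs only, and for the 5 other pathway genes of lowest rank sum, of which 1 is not reported here; further members are named, some with values chosen after they were seen. Members and lists were chosen with earlier results of these data known. Python 3.11.15 with pandas 2.3.3 and scipy 1.17.1 was used.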

Additional observations from a re-analysis of the deposited data

How the results depend on the processing

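Of 66 alternatives, 38 stayed within 1.5 times of a count or within the interval of a value. No paired analysis was possible because a single ChIP condition leaves no groups to compare, and the partner shares and percentiles have no value for 1 replicate or, for the shares, under the annotation of replicate 2. Genes with a pair within 10 kb were 13; they numbered 6 for scores at or above the median, 2 in the 5000 highest scores, 3 within 1 kb, 28 within 50 kb, 27 of all 106 symbols by gene span or within 10 kb of it, and 7 by the RefSeq start site, a setting chosen after seeing the data that covers fewer genes. The range without 1 replicate was 15 to 16. All 13 genes were among those of either list, which is nearly fixed in advance because a pair needs a peak in both. Genes with a pair at any distance were 32, and 20 above the median score, 4 in the 5000 highest and 20 inside the gene span (also chosen after seeing the data), with a range without 1 replicate of 37 to 40. The 43 pairs became 28 within 50 bp, 23 above the median, 4 in the 5000 highest, and 60 to 78 without 1 replicate. Partner shares in replicates 1 and 2 moved to 46.7% and 35.9% within 50 bp, to 85.2% above the median in replicate 1 and to 66.7% in the 5000 highest in replicate 2. The median percentile moved to 79.8 above the median and 94.3 in the 5000 highest, where the median distance was 33.0 kb; it was 19.2 to 21.9 kb without 1 replicate. The 8 other pathway genes became 5 within 50 bp, 5 above the median, 4 in the 5000 highest, 3 within 1 kb, 3 within 5 kb, 24 within 50 kb, 34 by gene span, and 10 to 15 without 1 replicate. Stricter settings hold fewer peaks by construction. Depth is unknown, so a missing peak is not shown to be missing binding.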
